A study of Mus musculus with 12 samples.

Results

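After IL-4, 4 of 12889 autosomal genes tested were lower in macrophages from Ptprz1 knockout (KO) mice than in macrophages from wild-type (WT) mice, and 0 were higher, at an adjusted p below 0.05 (0.031% of autosomal genes; edgeR's quasi-likelihood test). At an unadjusted p below 0.05, 265 were higher. Other fits called more higher genes, 1 with DESeq2, 13 of 24 without the filter on low counts, and up to 24 over all settings tried, with collagen genes among them. The 4 lower genes were Cndp2, a cytosolic dipeptidase, Met, the receptor of hepatocyte growth factor, Gm20186, a long intergenic RNA, and Gdf3, a ligand of the TGF-beta family. The comparison holds 4 of the 12 libraries of the study, 2 of each genotype, which the titles and treatment labels assign to IL-4. Autosomal genes were 12889 of the 13525 genes tested. The others were on X (428), on Y (8), on the mitochondrial genome (15) or without a position in the annotation used (185).

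The cells were macrophages grown from bone marrow for 6 days with M-CSF at 10 ng/mL, and then given IL-4 at 20 ng/mL for 24 h. The genotype labels are PTPRZ_KO and PTPRZ_WT, and the titles of WT libraries begin with B6. The strain label is B6.129-Ptprz1tm1Nmo in all 12 libraries, WT included. The other groups of the study are the same 2 genotypes without a stimulus and after LPS with IFNγ. No label gives an age, and none states if libraries that share a group are separate animals or separate cultures. The p-values below therefore reflect the spread among these libraries alone, and that spread may be technical.

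IL-4 binds a receptor made of IL-4Rα and the common gamma chain on macrophages. JAK kinases then phosphorylate STAT6, which enters the nucleus and turns on a set of genes that includes arginase 1, resistin-like alpha, chitinase-like proteins, lectin receptors and the genes of macrophage fusion. PTPRZ1 is a receptor-type tyrosine phosphatase best known from glia and neural progenitors, where pleiotrophin and midkine bind it and reduce its activity.

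Ptprz1 (chr6:22875502-23052916, GRCm38) had 0 counts in 11 of the 12 libraries, both KO IL-4 libraries included. Its 7 counts in WT IL-4 library 2, the one library with any, correspond to 0.344 CPM (counts scaled by effective library size). WT IL-4 library 1 had 0 counts. The gene was below the filter on low counts, so its level in these cells does not check the genotype labels. Total counts of the IL-4 libraries ran from 16239656 to 19266309, and 0 counts allow up to 3 counts, which is 0.164 and 0.142 CPM in KO libraries 1 and 2.

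The genotypes also differed in sex-linked transcripts. Xist, the RNA of the inactive X chromosome, was at 0 in both KO IL-4 libraries and at 485 and 611 CPM in the WT libraries. The Y-linked Ddx3y was at 89.1 and 111 CPM in KO but 0 in WT, and Eif2s3y, Kdm5d and Uty had the same pattern. Sex and genotype therefore cannot be told apart in any value that follows.

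KO IL-4 library 2 stood apart from the other 3 IL-4 libraries in several gene groups. Its mitochondrially encoded transcripts took 1.39% of counts, against 2.76% in KO library 1 and 2.34% and 2.68% in WT. The mean log2 CPM of 10 MHC class II genes was 1.41 in that library, against 3.20 in KO library 1 and 3.25 and 3.33 in WT. Between the 2 KO libraries 2.92% of autosomal genes at 5 CPM or more differed by over 2-fold, against 1.43% between the 2 WT libraries. Leaving out 1 library moved many of the values that follow by over 1.5 times.

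Cndp2 (ENSMUSG00000024644, protein coding, chr18:84667465-84685702, GRCm38) encodes an enzyme that cuts dipeptides in the cytosol. Its level was 62.5 and 84.5 CPM in KO and 492 and 434 CPM in WT. Both KO libraries were far below both WT libraries, and the gene fell by 2.66 ± 0.17 on the log2 scale (± is the standard error throughout; edgeR's quasi-likelihood test, adjusted p = 1.63e-04). Of the 29 tested genes in a list of peptidases and transporters of small peptides, Cndp2 alone passed the test (0.031% of autosomal genes did). No other member had an unadjusted p below 0.05. This list and those used for Met and Gdf3 were written with earlier results of these data known. That each holds a called gene is therefore not a result. Pepd, the prolidase of the same cytosolic step, was at 79.0 and 86.8 CPM in KO and 79.9 and 77.5 CPM in WT. The most abundant members were Anpep, a membrane aminopeptidase (1302 and 991 CPM in KO, 1259 and 1288 CPM in WT), Tpp1, a lysosomal tripeptidyl peptidase (453 and 380, 404 and 436), and Slc15a3, a lysosomal peptide transporter (286 and 312, 293 and 253). For these 4 genes the libraries of the 2 genotypes overlapped, and the list's median log2 fold change was -0.06, against 0.01 over all autosomal genes tested.

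Met (ENSMUSG00000009376, protein coding, chr6:17463800-17573980) was at 4.37 and 5.40 CPM in KO, against 22.0 and 18.3 CPM in WT. The 2 groups did not overlap, and Met fell by 2.04 ± 0.15 on the log2 scale (edgeR, adjusted p = 4.32e-04). Its ligand gene Hgf was at 14.2 and 13.7 CPM in KO and 16.2 and 16.4 CPM in WT, a log2 difference of -0.23 ± 0.19 that did not pass the test. Among the 27 tested genes of HGF and MET signalling, Met was the only one called (0.031% of autosomal genes were). The median over the list was 0.03, with 14 members above 0 and 13 below.

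The other members of the MET list were read by role. Dusp6, a phosphatase that is induced by and dampens ERK signalling, was at 20.4 and 32.2 CPM in KO and 16.3 and 16.2 CPM in WT (0.70 ± 0.25, unadjusted p = 0.0211, adjusted p = 0.98 by edgeR; 0.34 without KO library 2 and 0.99 without KO library 1). The abundant membrane partners of MET lay at like levels in both genotypes, with Cd44 at 550 and 469 CPM in KO and 553 and 591 CPM in WT, and Plxnb2 at 526 and 451 in KO and 446 and 476 in WT. Ptprj, a receptor phosphatase that acts on MET, was at 383 and 315 CPM in KO and 361 and 388 CPM in WT. All 3 activators of pro-HGF that were tested, St14, Hpn and Plau, had log2 fold changes above 0, and 4 of 5 inhibitors had ones below 0, with none of them at an unadjusted p below 0.05.

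Gm20186 (ENSMUSG00000106874, lincRNA, chr6:18845910-18848207) was at 3.66 and 2.23 CPM in KO, against 16.2 and 19.1 CPM in WT. It fell by 2.59 ± 0.25 on the log2 scale (edgeR, adjusted p = 0.00291), with every WT library above every KO library.

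Gdf3 (ENSMUSG00000030117, protein coding, chr6:122605403-122610087) was at 18.1 and 17.0 CPM in KO, against 40.3 and 38.3 CPM in WT. It had the smallest fold change of the 4 called genes and the closest libraries, and fell by 1.17 ± 0.12 on the log2 scale (edgeR, adjusted p = 0.00591). GDF3 is a secreted ligand that signals through activin-type receptors and SMAD2 and SMAD3. Of those receptor genes, Acvr1b was at 41.4 and 41.5 CPM in KO and 40.1 and 40.4 CPM in WT, and Acvr2a at 9.18 and 8.90 CPM in KO and 8.03 and 6.73 CPM in WT. Acvr1c and Tdgf1, also in the list of TGF-beta family signalling, had 0 counts in all 4 IL-4 libraries and were not tested. Smad3 was at 15.8 and 14.0 CPM in KO and 13.4 and 14.4 CPM in WT, so that its libraries overlapped.

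Gdf3 was the only member called among 43 tested genes of TGF-beta family signalling (0.031% of autosomal genes were). In that list 34 members were above 0 and 9 below, with a median of 0.29. Tgfbr2, the type II receptor of TGF-beta, was at 108 and 127 CPM in KO and 87.1 and 98.7 CPM in WT (unadjusted p = 0.0154), and Skil, a repressor of SMAD targets, at 41.6 and 89.3 CPM in KO and 38.5 and 43.0 CPM in WT (unadjusted p = 0.0364). Neither passed the test, at an adjusted p of 0.98 (edgeR). The most abundant members were Tgfb1 (244 and 187 CPM in KO, 233 and 231 in WT), Tgfbr1 (186 and 250 in KO, 177 and 170 in WT) and Ltbp3, which holds latent TGF-beta in the matrix (200 and 175 in KO, 196 and 169 in WT). Without KO library 2 the median of the list was 0.09 and the log2 difference of Skil 0.03. Without KO library 1 that of Skil was 1.13, and edgeR called it (adjusted p = 0.0369).

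**Figure D1:**
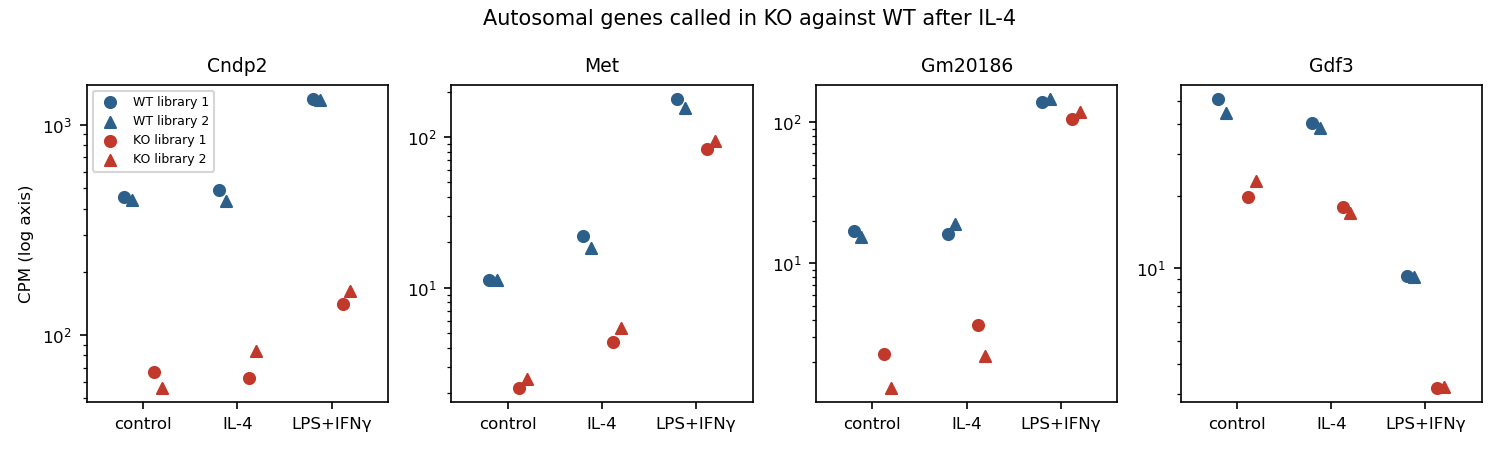
CPM on a log axis of the 4 autosomal genes called after IL-4, in all 12 libraries; blue points are WT, red points KO, circles library 1 and triangles library 2 of each group. Under IL-4 both KO libraries lie below both WT libraries for each gene, for example 62.5 and 84.5 against 492 and 434 CPM for Cndp2.

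At an unadjusted p below 0.05 there were 427 autosomal genes (3.31%), 265 higher (2.06%) and 162 lower (1.26%), fewer than the 644 that 5% of all would give. The KO and WT libraries did not overlap for 3958 genes (30.7%). DESeq2 called 10 autosomal genes, 1 higher and 9 lower, and these included all 4. Gm29084 had the smallest adjusted p of the others (-5.49, DESeq2, adjusted p = 1.48e-05). Without the filter on low counts edgeR called it too (adjusted p = 4.46e-05). With only the 4 IL-4 libraries in the fit, edgeR called 0 autosomal genes, with 304 at an unadjusted p below 0.05, and the adjusted p was 0.0709 for Cndp2, 0.209 for Met and 0.302 for both Gm20186 and Gdf3. Cndp2, Met and Gm20186 were called whichever IL-4 library was left out, while Gdf3 had an adjusted p of 0.111, 0.1004 and 0.0646 without KO library 2, WT library 1 and WT library 2.

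The nearest autosomal gene outside the threshold was AL732309.1, annotated as protein coding on chromosome 2, which was singled out after its values were seen. It had 0 counts in both KO IL-4 libraries and 2.68 and 3.73 CPM in WT, at least 19.5-fold lower against a limit of 3 counts in the shallower KO library (edgeR, adjusted p = 0.0508). DESeq2 called it (adjusted p = 6.84e-05), as did edgeR without the filter on low counts (adjusted p = 6.41e-07). In KO libraries without a stimulus it was present, at 3.18 and 2.97 CPM, beside 2.28 and 2.41 CPM in WT.

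Below the threshold, the 10 lower autosomal genes with the smallest p-values, with groups apart and at least 5 CPM on average, were led by Arhgef18. It was at 2.68 and 4.17 CPM in KO and 9.88 and 9.53 CPM in WT (-1.50 ± 0.28, edgeR adjusted p = 0.321). Creb5, a factor of the CREB family, was at 10.2 and 7.10 CPM in KO and 15.01 and 21.2 CPM in WT (-1.07 ± 0.20, edgeR adjusted p = 0.321). Both were called by DESeq2, as was Btbd2 (17.2 and 11.9 CPM in KO, 25.1 and 26.3 in WT). Eya1, a developmental regulator with phosphatase activity, was at 13.1 and 7.01 CPM in KO and 21.8 and 23.6 CPM in WT. Without a stimulus and after LPS with IFNγ, Arhgef18 differed by -1.91 and -2.08, Btbd2 by -0.95 and -0.66 and Eya1 by -1.31 and -1.86. Creb5 differed by 0.19 and -0.37 in those states. None of these differences passed the test.

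The zinc transporter gene Slc30a4 was at 56.7 and 34.4 CPM in KO and 81.7 and 82.2 CPM in WT. Noct, a circadian phosphatase, was at 20.8 and 22.1 CPM in KO and 35.9 and 34.5 CPM in WT, and Akr1b8, an aldo-keto reductase, at 36.3 and 34.0 CPM in KO and 54.0 and 44.4 CPM in WT. The rest were the lectin receptor gene Mgl2, described with the IL-4 targets, and the unnamed genes Gm42031 (6.01 and 4.12 CPM in KO, 9.26 and 9.23 in WT) and Gm48161 (4.26 and 4.73 in KO, 10.5 and 10.6 in WT). Without a stimulus and after LPS with IFNγ, Gm42031 differed by -0.77 and -0.83 and Gm48161 by -1.36 and -0.98. In those states Slc30a4 differed by -0.05 and -0.08, Noct by -0.35 and -0.10 and Akr1b8 by -0.27 and -0.43.

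Among the 10 higher genes chosen the same way, Col4a2, a chain of basement membrane collagen, had the largest difference, with 9.78 and 27.9 CPM in KO and 3.35 and 4.37 CPM in WT (2.29 ± 0.47, edgeR adjusted p = 0.590). Col4a2 was the 1 gene that DESeq2 called higher. Its difference was 1.34 without KO library 2 and 2.85 without KO library 1, where edgeR called it (adjusted p = 0.0188). Without a stimulus Col4a2 was at 15.6 and 13.2 CPM in KO and 23.8 and 28.4 CPM in WT. That lower level in KO did not pass the test (-0.86 ± 0.42, edgeR adjusted p = 0.672). From no stimulus to IL-4 it changed by -2.75 in WT (edgeR, adjusted p = 0.00891) and by 0.39 in KO. The genotype effects differed by 3.15 ± 0.63 (unadjusted p = 6.61e-04, edgeR adjusted p = 0.9999), which DESeq2 called (adjusted p = 0.00273). After IL-4, Nupr1, a nuclear factor induced by stress, stood at 5.36 and 9.04 CPM in KO and 2.90 and 4.22 CPM in WT. Jade2, a subunit of a histone acetyltransferase complex, was the most abundant of the 10, at 80.1 and 100 CPM in KO and 60.6 and 70.5 CPM in WT (0.46 ± 0.13).

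Cbr1, a carbonyl reductase, was at 23.3 and 31.2 CPM in KO and 18.8 and 19.4 CPM in WT. H1f0, a linker histone, was at 18.1 and 17.0 CPM in KO and 12.7 and 11.6 CPM in WT. The remaining 5, Rab11fip3, Gm42742, Tti2, Zfp839 and Pigv, differed by between 0.43 and 0.84 on the log2 scale. All genes of this set apart from Col4a2 had an adjusted p of 0.98 (edgeR).

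**Figure D2:**
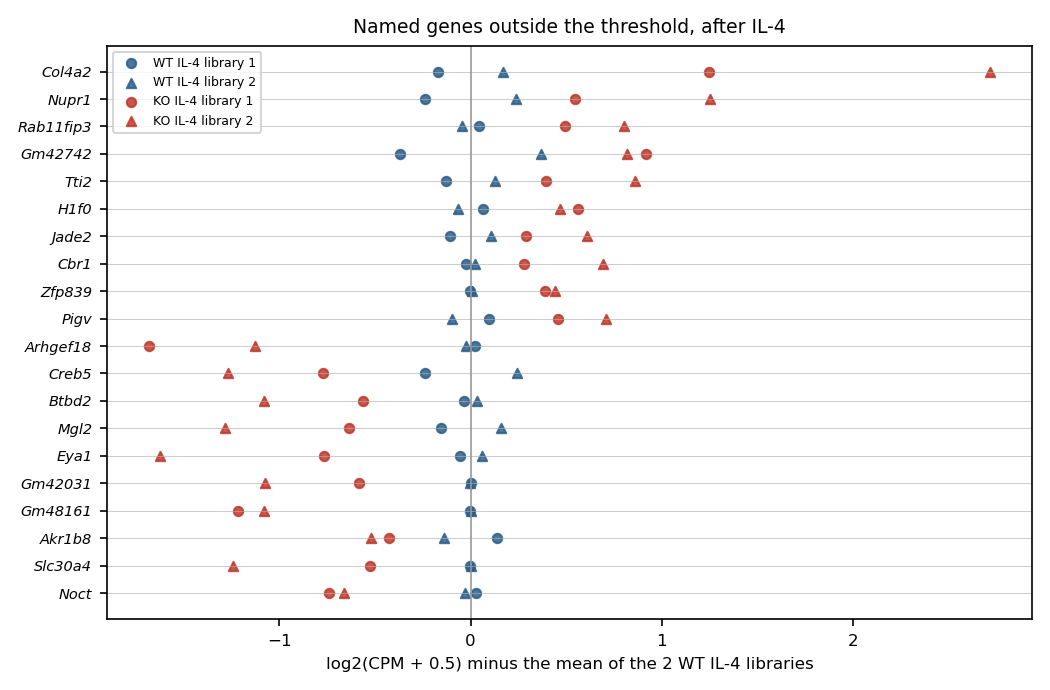
The 10 higher and 10 lower autosomal genes next to the threshold, each IL-4 library plotted as log2(CPM + 0.5) minus the mean of the 2 WT IL-4 libraries (red KO, blue WT, circles library 1, triangles library 2). The libraries of the 2 genotypes do not overlap, which the choice of genes required, and KO library 2 is the more distant one for most genes.

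Il4ra and the most abundant signalling genes of the IL-4 pathway were at like levels in the 2 genotypes. Il4ra was at 43.7 and 42.4 CPM in KO and 41.4 and 44.8 CPM in WT, with overlapping libraries and a log2 difference of 0.00 ± 0.18. Stat6 was at 217 and 209 CPM in KO and 196 and 209 CPM in WT, Jak1 at 259 and 267 in KO and 254 and 262 in WT, and Akt1 at 257 and 249 in KO and 242 and 224 in WT. Of 28 members tested, 11 were above 0 and 17 below, and the median was -0.03. The 4 receptor genes among them had a median of -0.28, with 1 above 0 and 3 below. The level of Il4ra therefore does not stand for all of them. Il13ra1, a receptor gene on X, was at 7.21 and 10.4 CPM in KO and 6.86 and 6.43 CPM in WT (0.41 ± 0.20, edgeR, unadjusted p = 0.0633). The member with an unadjusted p below 0.05 was Socs1, an inhibitor of JAK kinases that IL-4 induces, at 6.07 and 4.97 CPM in KO and 11.3 and 9.72 CPM in WT (-0.93 ± 0.31, unadjusted p = 0.0151, edgeR adjusted p = 0.98). Cish, another inhibitor of that family, was at 15.6 and 6.25 CPM in KO, with both WT libraries at 20.2 CPM (unadjusted p = 0.0653).

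Of 15 IL-4 induced transcription factors and coregulators, 4 were above 0 and 11 below, with a median of -0.05. The most abundant were Atf3 (634 and 635 CPM in KO, 648 and 639 in WT), Egr2 (203 and 184 in KO, 190 and 198 in WT) and Bhlhe40 (191 and 185 in KO, 208 and 212 in WT). Rxra, the partner of PPARγ and other nuclear receptors, was at 89.6 and 95.6 CPM in KO and 73.8 and 79.2 CPM in WT (0.28 ± 0.09, edgeR, unadjusted p = 0.0163). No member of the list was called. Rxra alone had an unadjusted p below 0.05, and 2.06% of autosomal genes were higher at that p. Irf4, a factor induced through STAT6, was at 15.5 and 6.96 CPM in KO and 21.3 and 20.5 CPM in WT (-0.90 ± 0.54). Both KO libraries lay below both WT libraries for Irf4, and most of the difference came from KO library 2.

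Among 36 tested effector genes of the IL-4 response, 0 were called, 29 had a log2 fold change below 0 and 7 above, and the median was -0.36. Over all autosomal genes 48.1% were below 0 and 51.3% above. Both KO libraries lay below both WT libraries for 16 of the 36 (15.4% of all autosomal genes did so). KO library 1 on its own was below both WT libraries for 23 of the 36 (63.9%, against 30.4% of all autosomal genes), and KO library 2 for 25 (69.4%, against 39.4%). The median was -0.15 without KO library 2 and -0.57 without KO library 1. The list was written with earlier results of these data known, and these counts describe it without a test.

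The 4 effector genes with an unadjusted p below 0.05 were all lower, and 162 autosomal genes (1.26%) were. Mgl2, a galactose-binding lectin of alternatively activated macrophages, was at 84.6 and 53.9 CPM in KO and 118 and 147 CPM in WT (-0.94 ± 0.20, unadjusted p = 0.00116, edgeR adjusted p = 0.787). Tmem26, a protein of the membrane, stood at 98.9 and 61.9 CPM in KO and 133 and 148 CPM in WT (-0.81 ± 0.26, unadjusted p = 0.0124). Retnla, which encodes the secreted resistin-like alpha (Fizz1), was at 166 and 99.8 CPM in KO and 219 and 243 CPM in WT (-0.80 ± 0.25, unadjusted p = 0.0229). Clec7a, the beta-glucan receptor Dectin-1, was at 665 and 522 CPM in KO and 737 and 816 CPM in WT (-0.39 ± 0.17, unadjusted p = 0.0461). In each of the 4, KO library 1 was also below both WT libraries. The last 3 had an adjusted p of 0.98 (edgeR). Without KO library 2 the differences of Mgl2, Tmem26, Retnla and Clec7a were -0.65, -0.50, -0.47 and -0.22, and without KO library 1 they were -1.30, -1.18, -1.21 and -0.57.

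The 250 bases before the start of these 4 genes and of Met are shown to compare their letters at the motif of STAT factors (RefSeq, GRCm38.p6, each 5′ to 3′ on the gene's own strand). Capitals mark TTCNNNGAA and TTCNNNNGAA, the spaced half-sites that STAT proteins bind, the longer one being the form known for STAT6. Each motif reads the same on both strands, and they share their outer letters.
Retnla (chr16:48842359-48842608, + strand): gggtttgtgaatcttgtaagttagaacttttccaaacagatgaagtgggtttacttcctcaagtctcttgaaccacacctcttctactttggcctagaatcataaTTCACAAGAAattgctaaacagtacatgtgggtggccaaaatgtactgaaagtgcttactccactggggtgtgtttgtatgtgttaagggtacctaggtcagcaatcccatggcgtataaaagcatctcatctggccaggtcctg
Tmem26 (chr10:68723496-68723745, + strand): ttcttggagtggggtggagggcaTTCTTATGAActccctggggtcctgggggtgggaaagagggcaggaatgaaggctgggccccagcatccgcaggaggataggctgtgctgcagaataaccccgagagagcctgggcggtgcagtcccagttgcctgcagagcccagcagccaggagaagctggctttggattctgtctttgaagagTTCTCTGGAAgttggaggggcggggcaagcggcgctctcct
Clec7a (chr6:129472780-129473029, - strand): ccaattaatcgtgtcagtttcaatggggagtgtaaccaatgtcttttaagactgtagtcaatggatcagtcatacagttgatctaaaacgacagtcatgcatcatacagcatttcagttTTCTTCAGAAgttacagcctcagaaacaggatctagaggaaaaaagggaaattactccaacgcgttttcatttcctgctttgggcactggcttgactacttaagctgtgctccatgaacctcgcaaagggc
Mgl2 (chr11:70130107-70130356, + strand): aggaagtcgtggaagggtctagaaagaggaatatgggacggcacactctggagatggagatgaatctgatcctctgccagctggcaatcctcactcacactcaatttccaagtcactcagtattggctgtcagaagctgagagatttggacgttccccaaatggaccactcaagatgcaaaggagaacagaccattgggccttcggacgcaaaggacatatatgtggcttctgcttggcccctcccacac
Met (chr6:17463707-17463956, + strand): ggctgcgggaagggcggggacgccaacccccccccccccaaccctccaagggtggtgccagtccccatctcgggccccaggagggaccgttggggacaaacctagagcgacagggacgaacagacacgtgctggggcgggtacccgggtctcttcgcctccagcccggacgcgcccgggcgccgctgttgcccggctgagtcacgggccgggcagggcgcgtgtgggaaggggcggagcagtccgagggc
The windows of Retnla, Tmem26 and Clec7a held a match, and those of Mgl2 and Met held none. The matches of the first 3 begin 145, 227 with 41, and 131 bases before the start. Of the 36 effector genes, 23 had an entry in the promoter table, and 8 of these (34.8%) held either motif. Over all autosomal genes tested with an entry it was 12.4% of 9520 genes, and over all windows 7.02% held TTCNNNGAA and 5.85% TTCNNNNGAA. A match describes the letters in the window and does not show that a factor binds there.

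The effector genes were then read by role. All 6 lectin genes and all 5 secreted factors were below 0. Above 0 were 2 of 2 matrix, 1 of 2 adhesion, 1 of 2 transporter, 1 of 4 chemokine, 1 of 4 receptor and 1 of 6 enzyme genes. Chil3, the chitinase-like Ym1, was at 334 and 406 CPM in KO and 564 and 482 CPM in WT (-0.50 ± 0.67), both KO libraries below both WT libraries. Mrc1, the mannose receptor CD206, was at 920 and 687 CPM in KO and 914 and 1103 CPM in WT, so that KO library 1 fell inside the WT range. Of the genes of macrophage fusion, Ocstamp was at 71.6 and 21.0 CPM in KO and 83.7 and 79.8 CPM in WT, and Dcstamp at 21.0 and 4.45 CPM in KO and 24.7 and 19.1 CPM in WT. For both, KO library 2 was low and KO library 1 near or within the WT range. The chemokine gene Ccl22 had 4.75 CPM and 0 in KO, against 4.02 and 9.43 CPM in WT.

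The most abundant effector genes were at like levels in the 2 genotypes. Cd36, the scavenger receptor, was at 5283 and 5735 CPM in KO and 5529 and 5479 CPM in WT. Mmp12, macrophage elastase, was at 4612 and 5190 CPM in KO and 4643 and 4539 CPM in WT. Arg1, arginase 1, was at 1454 and 1357 CPM in KO and 1499 and 1612 CPM in WT, lower in both KO libraries by a log2 difference of -0.15 ± 0.51. From the unstimulated to the IL-4 libraries the median log2 change of the 36 genes was 2.08 in WT and 2.08 in KO. Mgl2 changed by 8.91 in WT and 10.3 in KO, Chil3 by 6.83 and 7.28 and Ccl22 by 3.63 and 4.24. Mrc1 changed by 1.23 and 1.20, Ocstamp by 8.34 and 8.07 and Dcstamp by 2.15 and 2.03. Mgl2 was near the floor without a stimulus, at 0.0461 and 0.0487 CPM in KO and 0.243 and 0.296 CPM in WT.

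**Figure D3:**
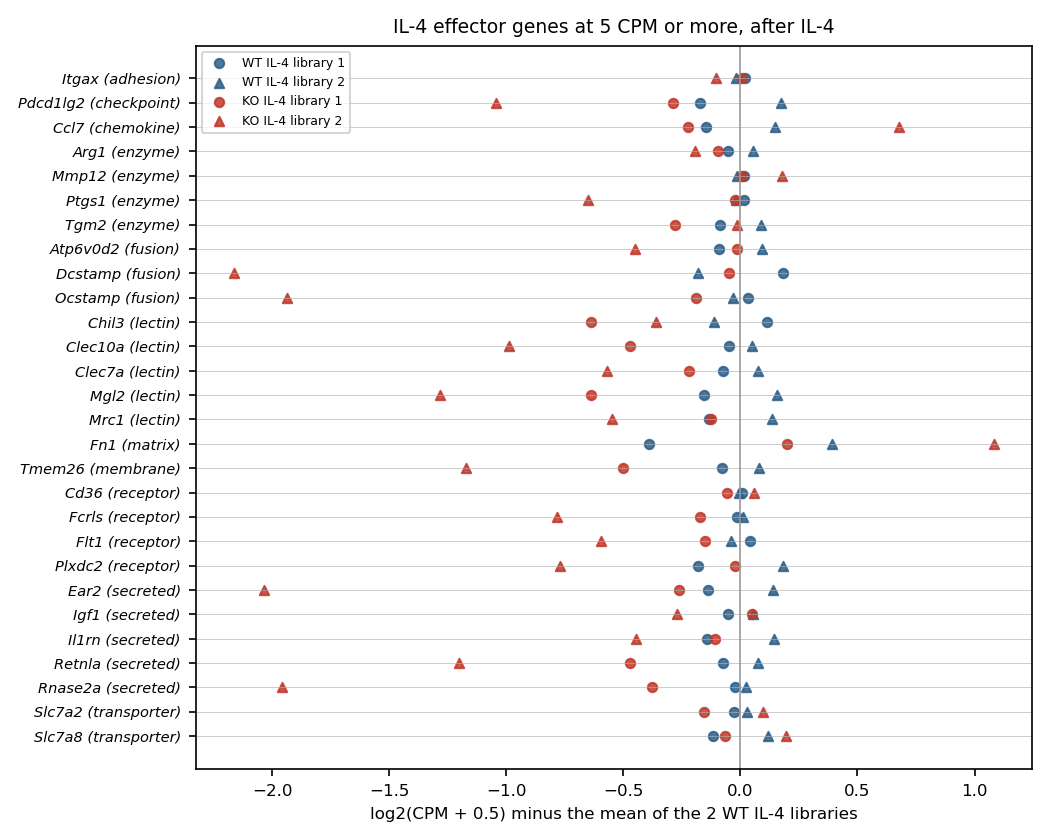
The 28 effector genes of IL-4 at 5 CPM or more on average, with their role in brackets; each IL-4 library is plotted as log2(CPM + 0.5) minus the mean of the 2 WT IL-4 libraries (red KO, blue WT, circles library 1, triangles library 2). KO library 2 is farthest to the left for most genes, with Dcstamp at 4.45 CPM against 24.7 and 19.1 CPM in WT, and KO library 1 lies nearer to WT.

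Antigen presentation genes separated KO library 2 from the rest. Of 10 MHC class II genes tested, 9 were below 0 with a median of -0.82, and 0 were at an unadjusted p below 0.05. Cd74, the invariant chain, was at 249 and 70.4 CPM in KO and 295 and 274 CPM in WT, and H2-Aa at 46.1 and 4.88 CPM in KO and 45.4 and 50.03 CPM in WT. Ciita, the activator of these genes, was at 9.56 and 0.616 CPM in KO and 10.9 and 10.0 CPM in WT, while H2-DMb1 was at 42.1 and 36.8 CPM in KO and 45.4 and 39.9 CPM in WT. The median was -0.16 without KO library 2 and -2.34 without KO library 1. Without a stimulus, KO library 2 also had the lowest mean log2 CPM of this list, 1.11 against 2.72 in KO library 1 and 2.88 and 2.75 in WT.

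Of 30 cell cycle genes tested, 26 were below 0 with a median of -0.47, and both KO libraries lay below both WT libraries for 23 of them (15.4% of all autosomal genes did so). None was called. Ccnb1, cyclin B1 of mitosis, was at 36.8 and 17.6 CPM in KO and 44.8 and 51.0 CPM in WT, and Birc5, survivin, at 23.7 and 17.3 CPM in KO and 32.7 and 30.4 CPM in WT (both with an unadjusted p = 0.0307). Mki67 was at 256 and 117 CPM in KO and 284 and 316 CPM in WT, and Top2a at 211 and 153 CPM in KO and 253 and 262 CPM in WT. Pcna, a replication factor and the most abundant member, was at 760 and 848 CPM in KO and 794 and 734 CPM in WT, with no separation of the genotypes. The median was -0.20 without KO library 2 and -0.78 without KO library 1, and it was -0.43 for KO against WT without a stimulus. In bulk RNA, fewer cycling cells and less of these RNAs per cell cannot be told apart.

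Of 22 core macrophage genes tested, 11 were above 0 and 11 below, and the median was 0.02. Csf1r, the M-CSF receptor, was at 1578 and 1237 CPM in KO and 1472 and 1622 CPM in WT, and Mpeg1 at 1980 and 1376 CPM in KO and 1650 and 1711 CPM in WT, and both were abundant in each genotype, as the macrophage label asks. The 4 members at an unadjusted p below 0.05 were all higher in KO, with an adjusted p of 0.98 (edgeR), and 265 autosomal genes (2.06%) were higher at that p. Lyz2, lysozyme, was at 3986 and 6275 CPM in KO and 3712 and 3565 CPM in WT. Cd14, the LPS coreceptor, was at 53.2 and 71.8 CPM in KO and 46.6 and 44.6 CPM in WT, and Mertk, which takes part in the uptake of dying cells, at 72.7 and 98.2 CPM in KO and 53.6 and 71.5 CPM in WT. Csf2ra was at 202 and 249 CPM in KO and 199 and 141 CPM in WT. Leaving out 1 IL-4 library gave log2 differences from 0.13 (without KO library 2) to 0.79 (without KO library 1) for Lyz2, 0.22 to 0.65 for Cd14 without the same libraries, 0.22 (without KO library 2) to 0.68 (without WT library 2) for Mertk and 0.18 (without WT library 2) to 0.68 (without WT library 1) for Csf2ra.

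Markers of stromal cells, which marrow cultures can also hold, differed between libraries of 1 genotype as well as between genotypes. Their summed level over 16 tested genes was 563 and 1902 CPM in KO and 103 and 419 CPM in WT, and none of the 16 was at 0 in any IL-4 library. Of the 16, 13 were above 0 and 3 below, with a median of 1.24. Col1a1 was at 137 and 651 CPM in KO and 18.2 and 70.7 CPM in WT, Col1a2 at 121 and 470 in KO and 18.0 and 71.6 in WT, Postn at 10.4 and 53.1 in KO and 1.28 and 4.47 in WT, and Col5a1 at 19.7 and 87.8 in KO and 3.57 and 11.5 in WT. These 4 had unadjusted p-values from 0.0207 to 0.0311 and adjusted p-values of 0.98 (edgeR). Without the filter on low counts edgeR called all 4, with adjusted p-values from 0.0127 to 0.0293. With a term for the library number in the fit, edgeR also called all 4 (adjusted p from 9.51e-04 to 0.0057). No label ties these numbers across groups. Sparc was at 67.4 and 174 CPM in KO and 11.9 and 61.8 CPM in WT. The median was 0.82, 0.79, 2.04 and 3.27 without KO library 2, WT library 1, KO library 1 and WT library 2.

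Of the TGF-beta list, Tgfb3 (2.73 and 8.29 CPM in KO, 0.446 and 3.39 in WT) and Fstl1 (17.0 and 45.4 in KO, 3.91 and 19.1 in WT) were lowest in WT library 1 and highest in KO library 2, as the stromal markers were. Without a stimulus the median of the stromal markers was 0.97, while Col4a2 was lower in KO (-0.86). The part of stromal RNA in the values of the TGF-beta list, of Col4a2 and of the 4 called genes was not tested.

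No partner or substrate of PTPRZ1 was called. Of 17 members tested, 11 were above 0 and 6 below, with a median of 0.09 and 0 at an unadjusted p below 0.05. The ligand genes Ptn and Mdk had 0 to 9 counts a library and were below the filter. Both ligands tested, Tnc and Fgf2, had log2 fold changes above 0, with a median of 1.14. Tnc, the matrix protein tenascin C, was at 16.2 and 40.4 CPM in KO and 2.62 and 15.7 CPM in WT, lowest in WT library 1 and highest in KO library 2 as the stromal markers were. Among the most abundant, Lrp1, a receptor of midkine, was at 2132 and 2878 CPM in KO and 1943 and 1963 CPM in WT, with both KO libraries above both WT libraries. Ncl, nucleolin, which binds pleiotrophin and midkine, was at 468 and 584 in KO and 504 and 485 in WT, and Ctnnb1, β-catenin and a reported substrate, at 441 and 564 in KO and 465 and 497 in WT.

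**Figure D4:**
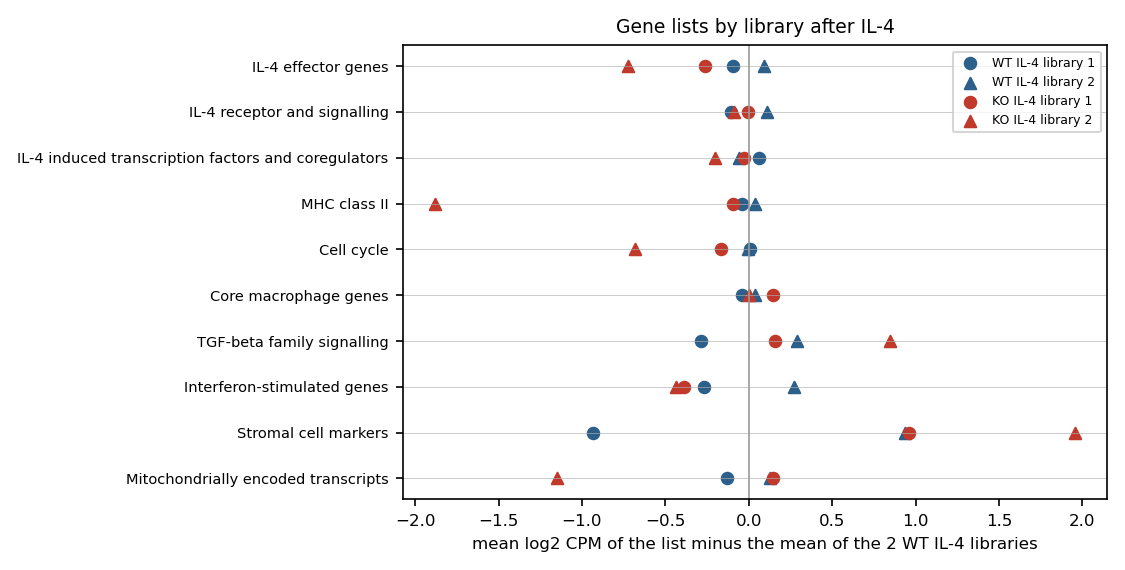
Mean log2 CPM of each gene list in each IL-4 library, minus the mean of the 2 WT IL-4 libraries (red KO, blue WT, circles library 1, triangles library 2). KO library 2 is apart for MHC class II, cell cycle and mitochondrial genes, for example 1.41 against 3.20, 3.25 and 3.33 for MHC class II, WT library 1 is lowest for stromal markers, and core macrophage and IL-4 signalling genes lie together.

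The same genotype comparison was set beside those in the other states of the study. Cndp2 differed by -2.86 without a stimulus and -3.12 after LPS with IFNγ on the log2 scale, and Gdf3 by -1.14 and -1.54, and each passed the test in all 3 states. The share of autosomal genes called was 0.0388% without a stimulus and 0.0233% after LPS with IFNγ. Met differed by -2.27 without a stimulus (edgeR, adjusted p = 3.71e-04) and by -0.92 after LPS with IFNγ (adjusted p = 0.0754). Gm20186 differed by -3.15 without a stimulus and by -0.35 after LPS with IFNγ, where it was at 106 and 118 CPM in KO and 139 and 146 CPM in WT.

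No autosomal gene passed the test of the difference between the genotype effect after IL-4 and that without a stimulus (0%; edgeR, 580 genes or 4.5% at an unadjusted p below 0.05), nor the test against LPS with IFNγ (0%; 595 genes or 4.62%). DESeq2 called 5 autosomal genes in each. Against no stimulus they were Neat1, AL732309.1, Col4a2, Ccl2 and Mcm4, and against LPS with IFNγ Gm20186, AL732309.1, Tmem268, Pdia4 and Met. For Gm20186 the effect after IL-4 differed from that after LPS with IFNγ by -2.25 ± 0.32 (unadjusted p = 4.98e-05, edgeR adjusted p = 0.673), and for Met by -1.12 ± 0.20 (unadjusted p = 3.04e-04, edgeR adjusted p = 0.881). DESeq2 called both. Pdia4, an endoplasmic reticulum folding enzyme that DESeq2 also called, was at 159 and 147 CPM in KO and 183 and 204 CPM in WT after IL-4, and at 96.3 and 109 CPM in KO and 76.6 and 76.7 CPM in WT after LPS with IFNγ.

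Neat1, the RNA scaffold of paraspeckles, was singled out after its values were seen. It was at 504 and 448 CPM in KO and 353 and 369 CPM in WT after IL-4, and at 149 and 159 CPM in KO and 420 and 309 CPM in WT without a stimulus. The KO libraries were above WT after IL-4, which did not pass the test (0.40 ± 0.16, unadjusted p = 0.0357, edgeR adjusted p = 0.98). Without a stimulus they were below WT, which passed it (-1.24 ± 0.17, edgeR adjusted p = 0.0403). The difference of the 2 effects was 1.64 on the log2 scale (unadjusted p = 4.78e-05, edgeR adjusted p = 0.616), which DESeq2 called. Rab4a, a GTPase of endosome recycling, also singled out afterwards, was at 6.23 and 5.49 CPM in KO and 3.35 and 3.34 CPM in WT after IL-4 (0.81 ± 0.24, unadjusted p = 0.00723, edgeR adjusted p = 0.98). Its difference was 1.19 without a stimulus (edgeR adjusted p = 0.302) and 2.56 after LPS with IFNγ, where it was called (edgeR adjusted p = 0.0113).

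Interferon-stimulated genes had log2 fold changes mostly below 0, with none called. Of 33 tested, 30 were below 0 with a median of -0.38 (48.1% of all autosomal genes were below 0), and 0 were at an unadjusted p below 0.05. Over the list, mean log2 CPM was 2.08 and 2.04 (KO), against 2.21 and 2.74 (WT), with WT library 2 standing apart. The median was -0.07 without WT library 2, -0.24 without KO library 2 and -0.54 without WT library 1. Abundant members were Parp14 (90.5 and 78.6 CPM in KO, 80.6 and 102 in WT) and Ifi204 (62.3 and 49.8 in KO, 67.2 and 82.0 in WT). KO and WT overlapped for Parp14 and lay apart for Ifi204.

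Without a stimulus the same list stood at a median of 1.41 for KO against WT, and 1 library carried most of it: its mean log2 CPM was 4.89 in KO library 1, 2.71 in KO library 2, and 2.81 and 2.79 in WT. Oasl2, an example singled out afterwards, was at 109 and 24.5 CPM in KO and 17.7 and 16.01 CPM in WT without a stimulus, and at 11.0 and 14.3 CPM in KO and 14.7 and 20.0 CPM in WT after IL-4. Without KO control library 2, edgeR called 12 autosomal genes in the test of the difference between the 2 states, all with a lower effect after IL-4, Oasl2 among them, and without KO control library 1 it called 0.

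The positions of the called genes on chromosome 6 were described against that of Ptprz1. Distance was taken between the nearest ends of the 2 genes. Met lay at -5.302 Mb and Gm20186 at -4.027 Mb, on the proximal side of Ptprz1, and Gdf3 at 99.55 Mb on the other side. Chromosome 6 held 3 of the 4 called genes, with 667 of the 12889 autosomal genes tested. The share called over all autosomal genes was 0.031%. Within 20 Mb of Ptprz1, 138 genes were tested, 2 were called and 4.35% had an unadjusted p below 0.05, against 3.31% of all autosomal genes. From 20 to 60 Mb it was 0 called of 135 and 3.7%, and beyond 60 Mb 1 called of 394 and 2.79%. The other genes of the chromosome with an unadjusted p below 0.01 and at least 1 CPM on average were Akr1b8, Pdia4, Creb5 and Chn2, at 11.3, 24.74, 30.23 and 30.99 Mb, all lower in KO. What part distance from the targeted gene has in these values was not tested.

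**Figure D5:**
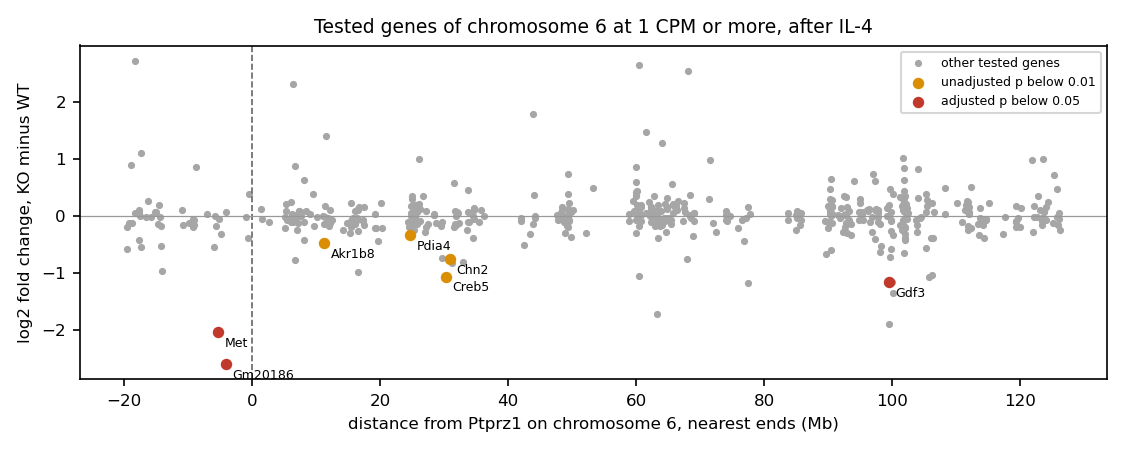
Log2 fold change (KO minus WT after IL-4) of 541 tested genes of chromosome 6 at 1 CPM or more on average, against distance from Ptprz1 in Mb, between nearest gene ends (dashed line at Ptprz1). Red points passed an adjusted p below 0.05 and orange points had an unadjusted p below 0.01; Met and Gm20186 lie at -5.302 and -4.027 Mb from Ptprz1 and Gdf3 at 99.55 Mb.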

How the data were processed

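Per the submitters' processing notes, FastQC 0.11.9, Salmon 1.10.2, R 4.4.1 and DESeq2 1.45.3 were used with build GRCm39, with no role stated for each. The deposited table holds estimated counts, all whole numbers, for 55891 Ensembl identifiers in 12 libraries, and 0 value columns were without a sample. For the annotation, the trimming and the use of strand, nothing is given in the sources used here, so overlapping, antisense and near-identical genes have uncertain counts. Symbols and positions come from GENCODE M21 (GRCm38), which matched 92.0% of identifiers, and coordinates were not converted. Counts were tested with edgeR 4.0.16 in R 4.3.3 (filterByExpr, TMM scaling, 1 coefficient per group over all 12 libraries, quasi-likelihood F test, two-sided, Benjamini-Hochberg over 13525 genes), which left 6 residual degrees of freedom. Fitting all groups lets them share 1 estimate of spread. Standard errors are the fold change divided by the root of F. Alternatives were DESeq2 1.42.0, its size factors in edgeR, no filter, autosomal genes only, a replicate block, the 4 IL-4 libraries alone and each library left out.

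Members and gene lists were chosen with earlier results of these data known, so lists are described by counts and medians without a test. The lists were not limited to autosomal genes. Named genes are those called; the 10 higher and 10 lower next by p with groups apart and at least 5 CPM on average; the members of each described list with an unadjusted p below 0.05 and its 3 most abundant (1 is not reported here); any gene called in a difference between states; and Ptprz1 with sex-linked transcripts. Other genes named were chosen after their values were seen, as representatives of a list or for their position near a threshold. Differences are taken between libraries. Genes called the most abundant were ranked by CPM, which is not per length, so these ranks are not corrected for gene length.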

Additional observations from a re-analysis of the deposited data

How the results depend on the processing

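The count of 4 autosomal genes was 4 with DESeq2 size factors and with autosomal genes only, 10 with DESeq2, 24 without the filter on low counts and 0 with the 4 IL-4 libraries alone. All 4 were among those of DESeq2, of the unfiltered fit and of the block. With the replicate block it was 29, of which 24 were higher, many of them collagen and other stromal genes such as Col1a1, Postn, Col1a2, Col5a1 and Sparc (adjusted p from 9.51e-04 to 0.011), and AL732309.1 was called too (0.0321). No label states that library numbers mark shared animals or days. The differences between library 2 and library 1 correlated positively in all 15 pairs of groups (0.0405 to 0.336), and above 0.1 in 14. The lowest correlation was that of KO and WT after IL-4. What libraries of the same number share was not tested. The block changed no count of the differences between states. Those, 0 in both, were 5 and 5 with DESeq2, and 22 (against no stimulus) and 3 (against LPS with IFNγ) without the filter. Leaving out 1 library at a time gave 3 to 13 genes for the main comparison, 13 without KO IL-4 library 1. For the difference from no stimulus it gave 0 to 12, with 12 without KO control library 2. For the difference from LPS with IFNγ it gave 0 to 72, with 72 without KO LPS with IFNγ library 1, 1 without its library 2 and 4 without KO IL-4 library 1. The cause was not tested, except that fewer samples enter these fits.

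Of the named genes, those that changed sign were near 0. Cd36 was at -0.0134 with DESeq2 and with its size factors, -0.0024 with autosomal genes only, -0.0015 with the replicate block and -0.0032 with the 4 IL-4 libraries alone. Without the filter Mpeg1 was at 0.0015 and Il4ra at 0.0023, and with the block Egr2 was at 0.0070. Leaving out 1 library gave these ranges of log2 fold change: Egr2 -0.0777 to 0.0693, Cd36 -0.0571 to 0.0593, Pcna -0.00574 to 0.15, Mpeg1 -0.29 to 0.24, Csf1r -0.32 to 0.0305, Plxnb2 -0.0295 to 0.19, Ptprj -0.25 to 0.0326, Tgfb1 -0.31 to 0.0763, Ltbp3 -0.0614 to 0.15, Anpep -0.36 to 0.0336, Tpp1 -0.14 to 0.11, Ncl -0.0772 to 0.24, Ctnnb1 -0.12 to 0.23, Parp14 -0.27 to 0.0698 and Il4ra -0.0551 to 0.0587. Depth limits genes near the floor: 3 counts correspond to 0.142 to 0.167 CPM in the IL-4 libraries.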
